A study of Rattus norvegicus with 6 samples.

Results

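The genes described here are coactivators, proteins that transcription factors recruit to open chromatin and start transcription. They are the p160 nuclear receptor coactivators Ncoa1, Ncoa2 and Ncoa3, the histone methyltransferases Kmt2a and Kmt2d, the histone demethylase Kdm6a, and the acetyltransferases Crebbp (CBP) and Ep300 (p300). Ncoa3 and Kmt2d were chosen from these same arrays because they read lower with Math2, and the other 6 were added as their paralogues and partners. The values that chose Ncoa3 and Kmt2d are therefore given as a description, with no test. All probe sets whose platform symbol was one of these 8 names were taken. This gave 19 probe sets for 7 genes, of 14217 genes with a single symbol on the array. Kdm6a had 0 probe sets under that symbol, so it was not analysed here.

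Rat primary cortical cells, from the brain's cortex, received either a Math2 expression vector or a control vector. Math2, now called Neurod6, is a neuronal basic helix-loop-helix transcription factor. Both groups also received a vector for a truncated nerve growth factor receptor. Cells bearing this surface tag were collected magnetically 24 h later, so all arrays report cells selected by the tag from mixed cultures. How many of the collected cells also held the Math2 or control vector was not measured here. There were 3 control and 3 Math2 arrays (Affymetrix Rat Genome 230 2.0), made from total RNA by 2-cycle labelling, and the labels give no strain or age and do not say whether replicates came from separate cultures or animals. The p-values therefore reflect the spread among these arrays alone, and that spread may be technical.

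In general outline, a DNA-bound factor such as a nuclear receptor recruits a p160 protein, which in turn brings in CBP or p300 to acetylate histones. Kmt2d and its close relative Kmt2c sit in a complex with Kdm6a that methylates histone H3 at enhancers, whereas Kmt2a and Kmt2b work mainly at promoters. CBP and p300 are also partners of CREB in activity-dependent transcription in neurons. Loss-of-function variants in the human genes for Kmt2d and CBP are known to affect brain development.

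The arrays as a whole set the limits of what follows. Median signals ran from 102 to 120, and the ratio of the 3' to the 5' Gapdh probe set, which grows as labelled transcripts become shorter, was 13.8, 3.74 and 5.04 in control replicates 1, 2 and 3, against 8.48, 6 and 8.14 in Math2 replicates 1, 2 and 3. Hybridization spike-ins had a geometric mean of 1615 to 2225 on the control arrays and of 3392 to 5822 on the Math2 arrays. Every Math2 array thus lay above every control array. This technical difference runs with the groups, so its part in the differences below cannot be told apart from that of Math2. The Neurod6 probe set read 386, 207 and 973 in control replicates 1, 2 and 3, against 312, 167 and 1546 in Math2 replicates 1, 2 and 3, a log2 difference of 0.021 that was higher in 1 of 3 pairs. Its place relative to the transfected sequence is not given in the sources used here, so the Math2 and control groups rest on their labels. The summed signal of 12 neuron markers was 15849 to 28294 on control and 16296 to 36594 on Math2 arrays, that of 9 astrocyte markers 27130 to 35451 and 24199 to 39254, and that of 8 fibroblast markers 6728 to 10193 and 6263 to 8290. Of the tested neuron markers 8 of 10 had a log2 difference (Math2 minus control) above 0. Of the astrocyte markers 5 of 8 were below 0, and of the fibroblast markers 5 of 6, where 5650 of all 10417 tested genes were. Excitatory neuron markers, 9 listed and 6 tested, summed to 1692 to 4675 and 1585 to 7935, with 5 of 6 above 0. Neurod6, the transfected gene, is in this list, so it is among those 5 and its signal is part of these sums. Of the inhibitory neuron markers 5 of 6 tested were below 0 (sums of 2661 to 6129 and 3160 to 6368), of the oligodendrocyte lineage markers 4 of 5 (6515 to 11211 and 7091 to 10347) and of the endothelial markers 2 of 2 (394 to 823 and 308 to 696). All 8 microglia markers lay below the median on every array, with sums of 276 to 325 on control and 196 to 246 on Math2 arrays. The part of cell composition in the results below was not tested, and fewer cells of a type cannot be told apart from less RNA per cell.

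Among the p160 family, Ncoa3, a coactivator of steroid and thyroid receptors also known as AIB1, gave different answers with its 2 probe sets. The set 1388178_at had signals of 193, 254 and 167 in control replicates 1, 2 and 3, against 47.0, 50.9 and 85.2 in Math2 replicates 1, 2 and 3. Every Math2 array lay below every control array. The means were 204 ± 44.9 and 61.1 ± 21.0 (SD, n = 3), so the log2 difference was -1.65 (SE 0.37), where a log2 difference is Math2 minus control on the log2(signal + 7.42) scale. On that scale the control level was 3.14-fold that of Math2. The difference was -1.88, -2.16 and -0.91 in numbered pairs 1, 2 and 3. Of all 18625 tested probe sets, 0.0537% had a log2 difference this low or lower, 4.30% were lower without overlap and 3.70% higher without overlap. This gene was chosen for being low, so nothing is read from these shares.

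The other Ncoa3 probe set, 1380638_at, showed no such pattern. It read 32, 85.5 and 80.5 in control replicates 1, 2 and 3, against 58.7, 52.7 and 84.5 in Math2 replicates 1, 2 and 3. The groups overlapped widely and the log2 difference was 0.061 (SE 0.44), which became -0.34 when control array 1 was left out and -0.12 when Math2 array 3 was. Its signal was below the median on all 6 arrays, and that of 1388178_at on all 3 Math2 arrays. The table holds no detection calls, so it is unknown whether these signals were above background, and the size of the 1388178_at difference is uncertain. The platform annotation ties 1388178_at to an mRNA record and 1380638_at to an expressed sequence tag, a single-read cDNA fragment. Which part of the Ncoa3 transcript each reads is not given in the sources used here, so the disagreement between them was not resolved.

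Ncoa1, also known as SRC-1, was bright on 2 of its 3 probe sets. The set 1383166_at read 3219, 1915 and 2221 in control replicates 1, 2 and 3, against 1852, 1386 and 2443 in Math2 replicates 1, 2 and 3. Math2 array 3 lay above 2 of the 3 control arrays. The log2 difference was -0.37 (SE 0.28), with a limma adjusted p of 1.00, or 0.726 with the replicate number as a block. The set 1390010_at read 1383, 740 and 924 in control and 1067, 816 and 1404 in Math2, a log2 difference of 0.12 (SE 0.31, adjusted p = 1.00 in limma). So the 2 bright Ncoa1 probe sets differed in sign and neither passed. The third Ncoa1 set, 1389909_at, stayed between 4.03 and 8 on the 6 arrays.

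Ncoa2, the third p160 protein, known as GRIP1 or TIF2, had a single probe set that read only 2.76 to 15.1 on the 6 arrays. That is far below every array median, so it was not tested and no statement on Ncoa2 can be made. Within the p160 family the values of Ncoa3 can therefore be set beside those of Ncoa1 alone.

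**Figure D1:**
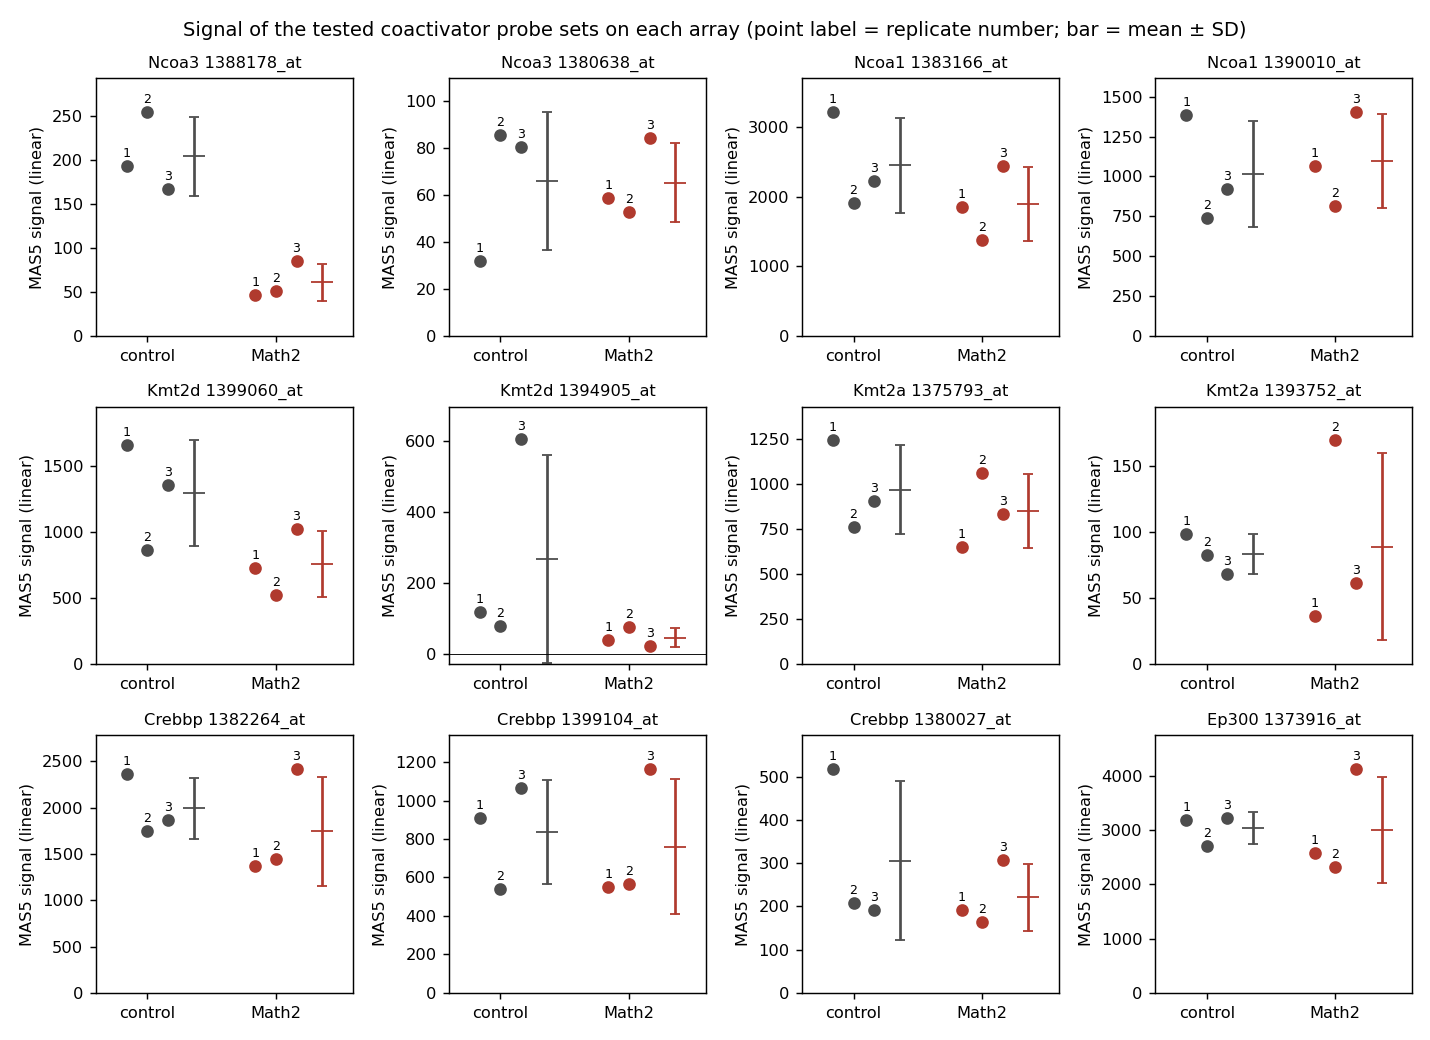
MAS5 signal (linear axis starting at or below 0) of the 12 tested coactivator probe sets on each of the 3 control (grey) and 3 Math2 (red) arrays; digits give the replicate number and the bars the mean ± SD. Only Ncoa3 1388178_at and Kmt2d 1394905_at have groups that do not overlap, and in the latter control array 3 stands apart at 604.

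Among the methyltransferases, Kmt2d (also MLL4 or MLL2), which deposits methyl marks on histone H3 at enhancers, was lower in Math2 on both of its probe sets. The brighter, 1399060_at, read 1657, 865 and 1355 in control replicates 1, 2 and 3, against 731, 522 and 1019 in Math2 replicates 1, 2 and 3. Control array 2 lay below Math2 array 3, so the groups overlapped, but in each numbered pair the Math2 array was the lower one, by log2 differences of -1.17, -0.72 and -0.41. The means were 1292 ± 399 and 758 ± 249 (SD, n = 3), so the log2 difference was -0.77 (SE 0.33). All 6 signals were above their array median. Of all tested probe sets 15.2% were lower in 3 of 3 pairs, and 2.20% had a log2 difference this low or lower. Kmt2d was also chosen for being low, so nothing is read from these shares.

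The dimmer Kmt2d set, 1394905_at, read 117, 77.6 and 604 in control replicates 1, 2 and 3, against 38.9, 74.9 and 21.7 in Math2 replicates 1, 2 and 3. The groups did not overlap, but control array 2 and Math2 array 2 nearly met, and control array 3 alone was far above the rest. This set was below the median on 4 arrays, among them all 3 Math2 arrays. Without detection calls it is unknown whether those signals were above background. The log2 difference was -1.95 (SE 0.69), which shrank to -1.10 without control array 3 and to -0.73 with the replicate block and without pair 3. The pair differences were -1.42, -0.045 and -4.39, so pair 3 had by far the widest gap. Of all tested probe sets 0.0322% had a log2 difference this low or lower, and nothing is read from this share either. The 2 Kmt2d probe sets had the same direction in all 3 pairs, but their sizes did not run in parallel: the brighter set differed most in pair 1 and the dimmer in pair 3.

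Kmt2a (MLL1), a promoter-acting relative best known from leukaemia fusions, had 2 tested probe sets. Its brightest probe set, 1375793_at, read 1241, 760 and 905 in control and 650, 1060 and 833 in Math2, a log2 difference of -0.19 (SE 0.29, adjusted p = 1.00 in limma). Math2 array 2 was above 2 of the 3 control arrays. The set 1393752_at read 98.6, 82.9 and 68.5 in control and 36.4, 169 and 61.6 in Math2, with a log2 difference of -0.15 (SE 0.50, adjusted p = 1.00 in limma). Both turned positive, to 0.18 and 0.41, with the replicate block and without pair 1. The 2 remaining Kmt2a sets read 9.58 to 69.1 over the 6 arrays and were below the filter.

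Of the acetyltransferases, Crebbp had 3 tested probe sets and Ep300 had 1, and none was called. Crebbp 1382264_at read 2368, 1749 and 1867 in control replicates 1, 2 and 3, against 1369, 1441 and 2418 in Math2 replicates 1, 2 and 3. Its log2 difference was -0.23 (SE 0.27, adjusted p = 1.00 in limma). Math2 array 3 was the highest of all 6 arrays, and the other 2 Math2 arrays were the lowest.

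Math2 array 3 was also the highest of its group on the other tested acetyltransferase sets. Crebbp 1399104_at read 909, 538 and 1067 in control and 552, 565 and 1164 in Math2, a log2 difference of -0.17 (SE 0.37). Crebbp 1380027_at read 518, 207 and 192 in control and 192, 164 and 308 in Math2, a log2 difference of -0.35 (SE 0.42), which was 0.093 without control array 1. Ep300 1373916_at read 3183, 2708 and 3234 in control and 2587, 2317 and 4130 in Math2, a log2 difference of -0.057 (SE 0.25). In Ep300, as in Crebbp 1382264_at, the other 2 Math2 arrays were the lowest of all 6. The 3 remaining probe sets of both genes were not tested. Crebbp 1385852_at and 1387619_at read at most 49.1 on any array, and Ep300 1369307_at read 38.9 to 75.4.

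Of the 12 tested probe sets of 6 genes, 8 belonged to Ncoa1, Kmt2a, Crebbp and Ep300, which were not chosen for their own change. In limma 0 of these 8 passed at an adjusted p under 0.05, where 0% of all tested probe sets were called, and 0 of 8 were under an unadjusted 0.05, where 3.19% of all were. With the replicate block 0 of 8 passed at either level, where 0.0161% were called higher, 0% lower, and 7.70% lay under an unadjusted 0.05. Their log2 differences ran from -0.37 to 0.12 with a median of -0.18, against -0.031 over all tested probe sets, and 7 of 8 were below 0, where 54.3% of all were. Their SEs were 0.25 to 0.50, so a missed threshold does not show that these genes stayed level. The untested sets of these genes, below the median on all 6 arrays, had log2 differences of both signs. The values were 0.12 for Ncoa1, 0.30 and 1.01 for Kmt2a, -0.089 and 0.74 for Crebbp and -0.06 for Ep300. The value of 0.74 rests on Math2 array 3, at 36.7, where the other arrays read 1.87 to 3.81. No share over other untested probe sets was taken, so nothing is read from these signs.

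**Figure D2:**
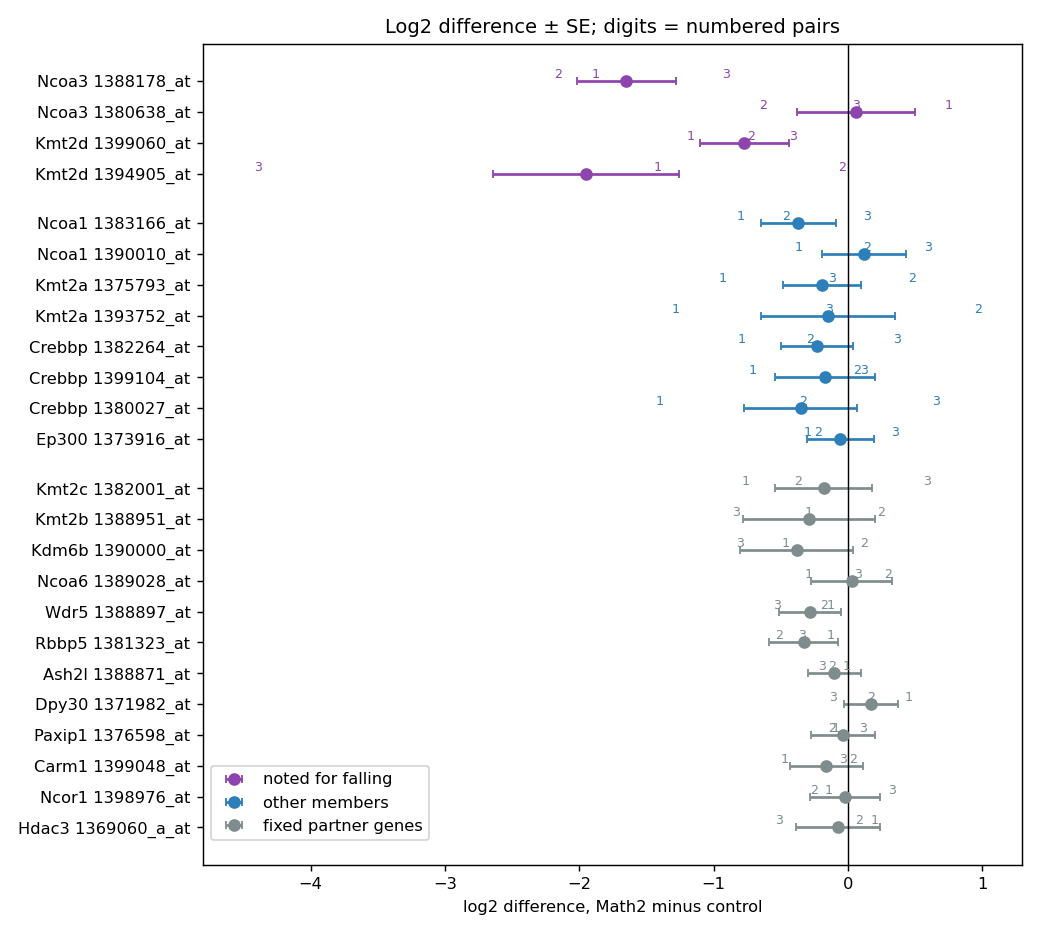
Log2 difference (Math2 minus control, x axis) with its SE for the tested probe sets of the members (purple for Ncoa3 and Kmt2d, blue for the others) and for 12 fixed partner genes (grey); digits mark the difference within numbered pairs 1 to 3. Ncoa3 1388178_at and both Kmt2d sets, chosen for being low, lie left of 0 in every pair, whereas the other Ncoa3 set lies left in 1. Wdr5, Rbbp5 and Ash2l also lie left in every pair, as did 15.2% of all tested probe sets.

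In pair 1 all 8 were lower with Math2, where 52.1% of all tested probe sets were. In pair 2 they split evenly, with 4 of 8 lower against 48.7% of all. In pair 3 only 2 of 8 were lower, against 54.5% of all, and those 2 were the Kmt2a sets. Ncoa3 1388178_at and both Kmt2d sets, of genes chosen for being low, were lower in all 3 pairs.

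Levels of the members also moved together from array to array within a group. Of the 8 member probe sets above the median on every array, which include the brighter Kmt2d set, control array 2 was the lowest control array on 7, where 33.1% of all such probe sets on the array had it lowest. Control array 1 was the highest on 6 of 8, against 37.5%, and Math2 array 3 was the highest of its group on 7 of 8, against 32.2%. These 8 come from 5 genes, 3 of them from Crebbp, and the pattern was noticed after the values were seen. The Gapdh 3' to 5' ratio given above was also highest on control array 1 and lowest on control array 2, and in the Math2 group it was 8.14 on array 3, below the 8.48 of array 1. The beta-actin 3' to 5' ratio was 22.7, 11 and 13.5 in control replicates 1, 2 and 3, against 14.3, 17.1 and 18.4 in Math2 replicates 1, 2 and 3. This ratio was thus highest on control array 1, lowest on control array 2 and, within the Math2 group, highest on array 3. The part of either ratio in the levels of these genes was not tested.

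The paralogues closest to Kmt2d were in the lists of pathway genes. Kmt2c, which shares the Kmt2d complex, read 2209, 1099 and 1364 in control and 1302, 851 and 2054 in Math2 on its brighter probe set, a log2 difference of -0.18 (SE 0.36, adjusted p = 1.00 in limma). It thus had the arrangement of the tested Crebbp sets, with Math2 array 3 the highest Math2 array. Its dimmer set, 1382658_at, went the other way at 0.23 (SE 0.44). Kmt2b, the paralogue of Kmt2a, had a log2 difference of -0.29 (SE 0.49) on its brighter probe set. This became 0.12 when either control array 3 or Math2 array 1 was left out. The other Kmt2b set, 1395786_at, was below the median on all 6 arrays and was not tested. It read 4.78, 13.8 and 7.67 in control and 10.1, 41 and 33 in Math2, a log2 difference of 1.04. Kdm6b, a demethylase related to the unmeasured Kdm6a, had one of -0.38 (SE 0.42), with signals of 367, 708 and 725 in control and 264, 770 and 412 in Math2, and was -0.025 without Math2 array 1 and -0.78 without Math2 array 2. None of the 3 passed, with or without the block.

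The core subunits that all these methyltransferases share had log2 differences from -0.33 to 0.17. Wdr5, the scaffold that holds the enzyme, read 1471 ± 152 in control and 1213 ± 173 in Math2 (SD, n = 3), so the log2 difference was -0.28, and Rbbp5 read 687 ± 124 and 540 ± 49.9, one of -0.33. Ash2l had -0.10 and Dpy30 0.17. Wdr5, Rbbp5 and Ash2l were lower in 3 of 3 pairs, as 15.2% of all tested probe sets were, and Dpy30 in 1. The Ash2l difference in pair 1 was only -0.011. The SEs were 0.23 for Wdr5, 0.26 for Rbbp5 and 0.20 for both Ash2l and Dpy30. None of these genes was called, with or without the block. Paxip1 (PTIP), found in the Kmt2c and Kmt2d complexes, had -0.035, which was 0.020 with quantile normalization. Setd1a, a related enzyme of the same family of complexes, had the lowest value of this list at -0.75 (SE 0.31, adjusted p = 1.00 in limma, or 0.532 with the block).

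Of the 18 tested genes of the KMT2 and SET1 complexes, leaving out the members, 15 were below 0 and 3 above, with a median of -0.10, against 5650 of 10417 genes below 0 and a median of -0.028 over all tested genes. With quantile normalization 13 of the 18 were below 0. The 9 p160-associated coactivators had a median of -0.095 with 6 below 0. Ncoa6, which links nuclear receptors to the Kmt2c and Kmt2d complexes, had 0.028, which was -0.22 without control array 2. Carm1, the arginine methyltransferase that p160 proteins recruit, had -0.16. Ncoa4 was highest of that list at 0.29, and Ppargc1a, a coactivator of mitochondrial genes, lowest at -0.62 (SE 0.36). The 9 other acetyltransferases had a median of -0.054 with 7 below 0, from Kat2a (GCN5) at -0.85 (SE 0.48) to Hat1 at 0.063, which was -0.21 with quantile normalization. In limma 0 genes of these 3 lists were called in either direction with or without the block. Without the block 1 gene, Setd1a, had an unadjusted limma p under 0.05, as 3.19% of all tested probe sets did. The lists were not counted this way with the block. There the unadjusted limma p was 0.0185 for Setd1a and 0.0342 for Kat2a, where 7.70% of all lay under 0.05.

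On the opposing side, 13 corepressor genes had a median of -0.071 with 9 below 0, and 8 Polycomb and histone demethylase genes, listed as enzymes that oppose the H3 marks named above, had a median of 0.037 with 3 below 0. Ncor1, the scaffold of the nuclear receptor corepressor, read 2093 ± 479 and 2065 ± 453 (SD, n = 3), so the log2 difference was -0.021. Hdac3, the deacetylase bound to it, had -0.074, and Gps2, another subunit of that complex, was highest at 0.43. Hdac1 was lowest at -0.33. Suz12 (0.15) and Kdm5b (-0.33) bounded the second list. In limma 0 genes of both lists were called, with or without the block, and 0 had an unadjusted p under 0.05 in the fit without the block.

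**Figure D3:**
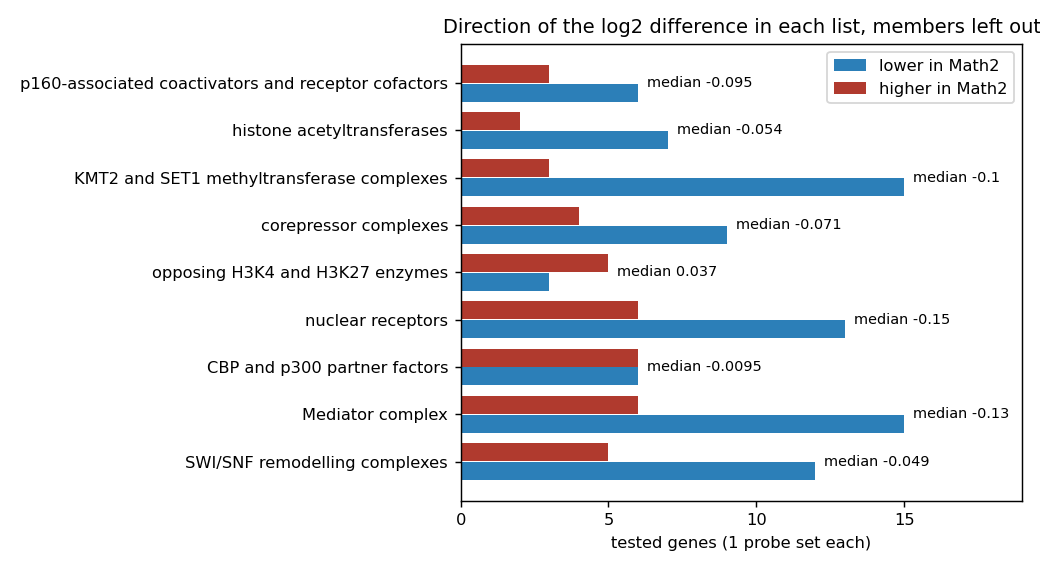
Number of tested genes (x axis) with a log2 difference above 0 (red) or below 0 (blue) in each of 9 fixed lists, the members left out, with the median log2 difference beside the bars. In 7 of the 9 lists more genes lay below 0 than above, as did 5650 of all 10417 tested genes.

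Genes whose pattern over the 6 arrays was most like that of each chosen member were found by the root-mean-square difference between mean-centred log2 signals, among 13751 probe sets of other genes. For Ncoa3 1388178_at they were Aspa, an enzyme of acetylaspartate breakdown (0.33), Slc38a3, a glutamine transporter (0.33), the oxysterol-binding gene Osbpl6 (0.36), the netrin gene Ntng1 (0.37) and Dolpp1 (0.39). All had smaller differences than Ncoa3, from -1.28 for Ntng1 to -0.95 for Osbpl6. Aspa and Slc38a3 were dim as well, with Math2 means of 49.2 and 44.6.

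For Kmt2d 1399060_at the distances were smaller. The nearest was Dlx5 (0.12), a homeobox gene of inhibitory neurons, which read 482, 257 and 392 in control and 242, 190 and 325 in Math2, followed by Armh4 (0.14), the plexin gene Plxnc1 (0.15), Aasdh (0.15) and Lnc215 (0.16). They shared with Kmt2d a low control array 2 and a high Math2 array 3 within their groups. Their log2 differences ran from -0.81 for Plxnc1 to -0.48 for Lnc215. None of the members was among the nearest to Ncoa3 or to Kmt2d. These genes were picked by likeness, so their lower values with Math2 are no separate result.

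**Figure D4:**
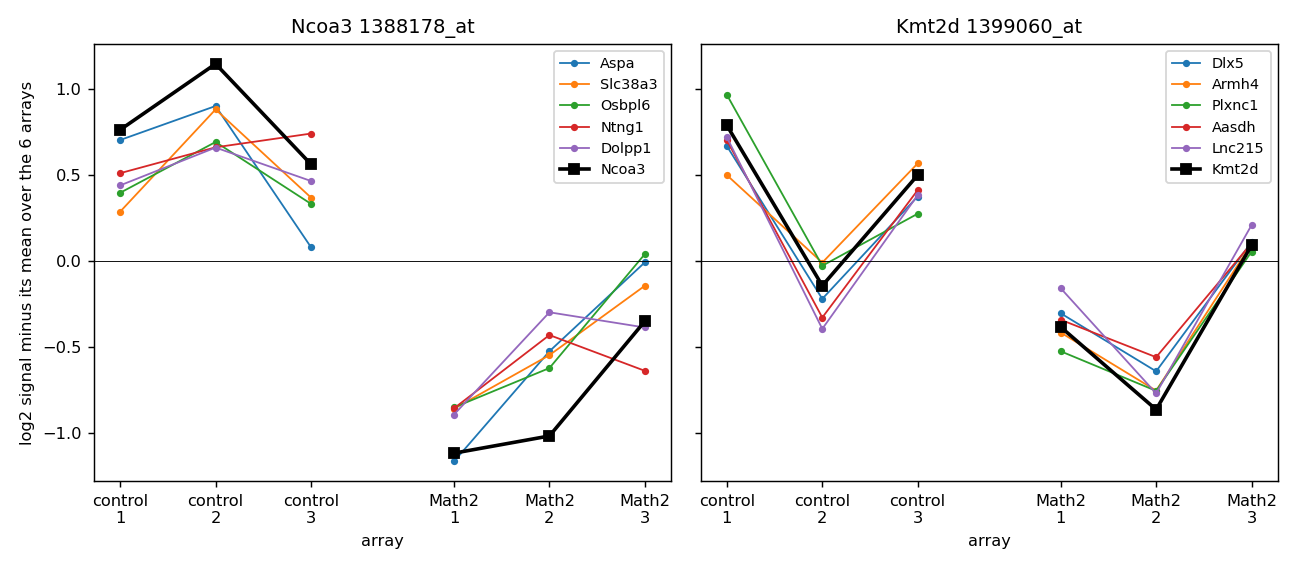
Log2 signal minus its mean over the 6 arrays (y axis) on each array for Ncoa3 1388178_at (left, black) and Kmt2d 1399060_at (right, black) with the 5 nearest genes of each; lines only join the points of one gene within a group. Ncoa3 separates the groups by more than its neighbours, whereas Kmt2d and its neighbours share the dip at control array 2 and the peak at Math2 array 3.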

How the data were processed

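The values are the authors' deposited MAS5 intensity of each probe set (linear scale, 1 column per array), with MAS5 named in the submitters' processing notes. Its version and settings are not stated in the sources used here. MAS5 condenses the probes of a set after background and mismatch subtraction, so dim sets are noisy. The mean after trimming the top and bottom 2% was 500.2 on every array, so no further scaling was applied. Of 31099 probe sets, 57 controls were left out. Names came from the platform annotation, in which 20826 probe sets have 1 symbol, 436 several and 9780 none. By gene number, 20764 matched RefSeq (GRCr8) and 0 symbols changed.

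Signals became log2(signal + 7.42), the 10th percentile of positive values. This scale understates changes of dim probe sets. Probe sets whose mean reached the 40th percentile, 6.07, were kept, which left 18625 for limma 3.58.1 in R 4.3.3 (lmFit, eBayes with trend), two-sided, Benjamini-Hochberg over all, threshold 0.05. The code was tested on simulated data. Lists used each gene's brightest probe set. Named are all member probe sets, the highest and lowest gene of each list, 12 fixed partners and the 5 nearest patterns, and Rxrb was named after its values were seen. The members and lists were chosen with earlier results of these data known.

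Like-numbered control and Math2 arrays had correlated deviations from their group means (0.326, 0.476 and 0.372 for numbers 1, 2 and 3, all above the limit of 0.1), so the numbers were taken to pair samples, on the basis of the data alone. Of the unlike-numbered combinations, control 1 with Math2 3 was also just above that limit, at 0.104, and the rest were negative. Deviations from a group mean cancel within the group, so positive like-numbered values pull the unlike-numbered ones down. Their negative sign is therefore no further evidence of pairing. The planned fit has no block, and the fit with the replicate block is an alternative. Others were the pseudocount, filter, normalization and leaving out arrays or pairs.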

Additional observations from a re-analysis of the deposited data

How the results depend on the processing

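Over all probe sets 0 were called in every setting without the replicate block. The count was 3 with the replicate block, 6 with the replicate block and quantile normalization, and 4 to 114 with the block and without 1 numbered pair; leaving out arrays or pairs thus gave 0 to 114. For Ncoa1, Kmt2a, Crebbp and Ep300, and for the listed partner genes, 0 were called under all 17 alternatives, so the block changed no other call. The number of member probe sets below 0 was 10, and 5 to 12 when an array or pair was left out, with 5 in the block fit without pair 1. Ncoa3 1388178_at and both Kmt2d sets stayed below 0 in every setting that tested them. These genes were chosen for being low on these same arrays, so a kept sign is no separate support. The other Ncoa3 set, 1380638_at, ran from -0.34 to 0.41. With pseudocount 32 the value of Ncoa3 1388178_at was -1.35.

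Of 37 probe sets followed with a test, 17 changed sign at least once, and none of the 37 was called. With quantile normalization, with or without the block, Hat1 was -0.21 and Paxip1 0.020. Leaving out arrays or pairs gave log2 differences from -0.31 to 0.11 for Ep300, -0.52 to 0.18 for Kmt2a 1375793_at and -0.71 to 0.41 for Kmt2a 1393752_at, -0.86 to 0.17 for Crebbp 1380027_at, -0.53 to 0.047 for Crebbp 1382264_at, -0.52 to 0.097 for Crebbp 1399104_at and -0.12 to 0.37 for Ncoa1 1390010_at. Among the partners the ranges were -0.56 to 0.13 for Kmt2c, -0.70 to 0.12 for Kmt2b, -0.22 to 0.24 for Ncoa6, -0.11 to 0.023 for Paxip1, -0.30 to 0.038 for Carm1, -0.19 to 0.17 for Ncor1, -0.33 to 0.14 for Hdac3, -0.070 to 0.17 for Hat1, -0.064 to 0.36 for Suz12 and -1.25 to 0.13 for Actl6b. A further 17 kept their sign but moved by over 1.5 times, among them Ncoa1 1383166_at (-0.63 to -0.16), Kdm6b (-0.78 to -0.025), Kat2a (-1.34 to -0.29), Setd1a (-1.13 to -0.47), Cited2 (0.025 to 0.57), Esrra (-0.90 to -0.16) and Stat3 (-1.31 to -0.11). The cause was not tested beyond the use of fewer samples. Dim signals and 3 arrays a group limit all of these values.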

Other observations

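Genes that meet the coactivators at chromatin were also read. Of 19 tested nuclear receptors, the factors that recruit p160 proteins, 13 were below 0 and 6 above, with a median log2 difference of -0.15. The thyroid hormone receptor gene Thrb had the highest at 0.78 (SE 0.30). It read 242, 404 and 311 in control and 583, 607 and 449 in Math2, without overlap (as 3.70% of all tested probe sets were, in this direction) and higher in 3 of 3 pairs, and it did not pass in limma (adjusted p = 1.00, or 0.474 with the replicate block). Esrra, an estrogen-related receptor, was the lowest at -0.48. Without the block 2 of 19 receptors had an unadjusted limma p under 0.05, where 3.19% of all tested probe sets did, and 0 receptors were called. They were Thrb and Rxrb, the latter named for this count after its values were seen (log2 difference 0.76).

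Of 12 tested partner factors of CBP and p300, 6 were below 0, with a median of -0.0095 that was 0.010 with quantile normalization. Cited2, which competes for CBP, had 0.24 and Stat3 -0.57. Stat3 read 986, 1175 and 794 in control and 348, 1850 and 431 in Math2, so Math2 array 2 stood apart. Of 21 Mediator genes, 15 were below 0 with a median of -0.13. Med23 read 863, 678 and 791 in control and 438, 522 and 569 in Math2, without overlap (as 4.30% of all were, in this direction), a log2 difference of -0.60 (SE 0.26, adjusted p = 1.00 in limma, or 0.558 with the replicate block). Med31 was highest at 0.25. Of 17 SWI/SNF remodelling genes, 12 were below 0 with a median of -0.049, from Actl6b, the neuronal actin-like subunit, at -0.50 (SE 0.71) to Smarce1 at 0.32, which was 0.042 with quantile normalization. In limma 0 genes of these lists were called with or without the block. In the last 3 lists Med23 alone had an unadjusted p under 0.05 in the fit without the block.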
